A study of Homo sapiens with 4 samples.

Results

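The cells described here were untreated A375 cells (S) with UMIs of 10 genes of the mitotic machinery, set against S cells in which no UMI of these 10 genes was counted. UMIs are unique molecular identifiers, the counted transcript molecules. Members were S cells with at least 5 UMIs summed over 10 rule genes, TOP2A, MKI67, CENPF, UBE2C, HMMR, TPX2, PLK1, CENPA, ASPM and BIRC5. The comparison cells had 0 of these UMIs but could hold other genes of the published G2/M list of Tirosh. At 5000 UMIs per cell 93.7% of them (92.7% to 94.5%) held a UMI of another such gene, with a median of 3. Of these genes CKS1B was found in 36.4% and TUBB4B in 28.7% of the comparison cells, but CDK1 in 0.769% and GTSE1 in 0.140%. A UMI of the list therefore does not by itself show that a cell held transcripts specific to division. Cells were kept from 500 detected genes upwards and up to a mitochondrial share of 20% of the UMIs. Of the 6693 S cells that remained 1874 were members, or 28.0% (26.9% to 29.1%). There were 3099 cells with 0 rule UMIs, or 46.3% (45.1% to 47.5%), and the remaining 1720 cells, or 25.7% (24.7% to 26.8%), had 1 to 4 and entered neither class. In all 4 libraries 28640 cells passed the same filter. The UMIs of the rule genes chose the members, and all other genes were read from the same cells, so that the differences below are descriptions without a test.

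A375 is an established human melanoma line with an activating BRAF mutation, and all 4 cultures were made from it. S cells were grown without drug. The study made the other cultures resistant by 10 to 14 days on vemurafenib, a BRAF inhibitor, alone (RV) or with a MEK inhibitor. The MEK inhibitor was cobimetinib (RVC) or trametinib (RVT). These resistant cultures were free of drug for 24 hours before capture. Each culture gave 1 droplet library, with 10000 cells loaded, so that no spread between cultures could be measured. Ranges in brackets are exact intervals at 95%, Clopper-Pearson for shares of cells, Poisson for levels and conditional binomial for ratios, and cover counting error only. Levels are counts per 1000000 (CPM), the UMIs of a gene set against all UMIs in the cells of a class.

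A dividing cell copies its DNA in S phase, prepares for division in G2 and separates its chromosomes in mitosis. Genes for replication enzymes and histones are switched on by E2F factors around the entry into S phase, whereas genes for mitotic cyclins, spindle and kinetochore proteins are held back by the DREAM complex in resting and early cells and are switched on later by MYBL2 and FOXM1. The anaphase-promoting complex then marks cyclin B and securin for degradation, after which the cell leaves mitosis. A short element called CHR (cell cycle genes homology region, TTTGAA) and the CCAAT box bound by NF-Y recur in promoters of the later group, and E2F-type sites such as TTTCCCG and TTTGGCG in promoters of the earlier group.

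The promoters of 8 genes that carry the results below are shown to let these elements be seen, 4 of mitosis genes (CKS2, CCNB2, PRC1 and the rule gene PLK1) and 4 of replication genes (CDC6, GINS2, PCNA and RRM2). They were picked after the values were seen and because most of them hold a match. Each line gives the 100 bases before the transcription start of the RefSeq entry (GRCh38.p14), from 5′ to 3′ on the strand of the gene, and capitals mark TTTGAA and CCAAT as well as TTTCCCG and TTTGGCG on either strand. The windows are chr9:89311095-89311194 (plus strand) for CKS2, chr15:59105046-59105145 (plus) for CCNB2, chr15:90994536-90994635 (minus) for PRC1, chr16:23678789-23678888 (plus) for PLK1, chr17:40287779-40287878 (plus) for CDC6, chr16:85688955-85689054 (minus) for GINS2, chr20:5126623-5126722 (minus) for PCNA and chr2:10122639-10122738 (plus) for RRM2.
CKS2: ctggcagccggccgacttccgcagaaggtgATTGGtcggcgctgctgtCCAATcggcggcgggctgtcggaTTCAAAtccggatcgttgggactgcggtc
CCNB2: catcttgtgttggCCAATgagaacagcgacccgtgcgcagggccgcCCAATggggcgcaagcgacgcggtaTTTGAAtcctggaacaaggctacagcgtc
PRC1: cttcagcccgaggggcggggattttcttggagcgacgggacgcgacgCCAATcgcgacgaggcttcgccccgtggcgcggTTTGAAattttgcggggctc
PLK1: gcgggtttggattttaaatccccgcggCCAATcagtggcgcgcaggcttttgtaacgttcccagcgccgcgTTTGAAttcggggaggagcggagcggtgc
CDC6: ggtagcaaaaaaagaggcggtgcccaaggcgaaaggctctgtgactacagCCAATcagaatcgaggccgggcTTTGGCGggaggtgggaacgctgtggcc
GINS2: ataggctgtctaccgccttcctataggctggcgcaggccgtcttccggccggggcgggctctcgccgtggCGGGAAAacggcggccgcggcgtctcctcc
PCNA: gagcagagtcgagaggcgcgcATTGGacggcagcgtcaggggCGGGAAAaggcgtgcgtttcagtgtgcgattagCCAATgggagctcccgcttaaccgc
RRM2: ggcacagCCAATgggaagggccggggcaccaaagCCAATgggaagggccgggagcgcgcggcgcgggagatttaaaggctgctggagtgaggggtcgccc
In CKS2, CCNB2 and PLK1 TTTGAA began 29 bases before the start, and in PRC1 20 bases before it, each with at least 1 CCAAT further upstream. CDC6 held TTTGGCG 28 bases before its start, GINS2 held TTTCCCG 30 bases and PCNA 58 bases before theirs. RRM2 held CCAAT at 93 and 66 bases and no match to the other letters in this window.

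The same letters were counted on both strands of all 35116 RefSeq promoters, each 300 bases long (250 before to 50 after the start). TTTGAA was in 15.2% of them, CCAAT in 34.6%, TTTCCCG or TTTGGCG in 6.06%, and TTTGAA together with CCAAT in 5.90%. For the genes with enough UMIs to be compared in S, 4823 of 5787 matched by symbol, the shares were 9.71%, 35.8%, 9.59% and 3.81%. CCAAT can share a base with a neighbouring TTTGAA or TTTCCCG, which was not removed from these counts. Of the rule genes 7 matched, and all 7 promoters held TTTGAA and CCAAT. A match is a run of letters and was not tested for binding.

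The UMIs that chose the members were divided unevenly over the rule genes. UBE2C, which loads ubiquitin for the anaphase-promoting complex, gave the most rule UMIs with 27.8%, followed by TOP2A, the topoisomerase that untangles sister DNA, with 20.3%, CENPF, a kinetochore protein, with 17.0%, and BIRC5, survivin of the chromosomal passenger complex, with 10.5%. The mitotic kinase PLK1 gave 6.03%, MKI67, the Ki-67 protein that coats mitotic chromosomes, 5.47%, and the spindle assembly factor TPX2 5.07%. The smallest parts came from CENPA, the centromeric histone, with 3.19%, ASPM, a spindle pole protein, with 2.52%, and HMMR, a microtubule-binding protein, with 2.2%. The highest level was thus 387 CPM for UBE2C and the lowest 30.6 CPM for HMMR.

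Detection of the rule genes in the members followed from the choice and largely from their levels, so that it is a description of the class and shows no subclasses. UBE2C was detected in 87.0% of them, TOP2A in 85.6%, CENPF in 83.2% and BIRC5 in 75.8%, but PLK1 in 46.2%, CENPA in 32.4%, ASPM in 29.7% and HMMR in 25.1%. A member held 5 to 98 rule UMIs with a median of 11 and a 90th percentile of 35. A median of 5 of the 10 genes was detected in a member, 61 members held all 10 and 1 member held only 1, and a gene without a UMI may still be expressed. Members had to differ from the comparison cells in these genes, which have no UMI there by construction.

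**Figure D1:**
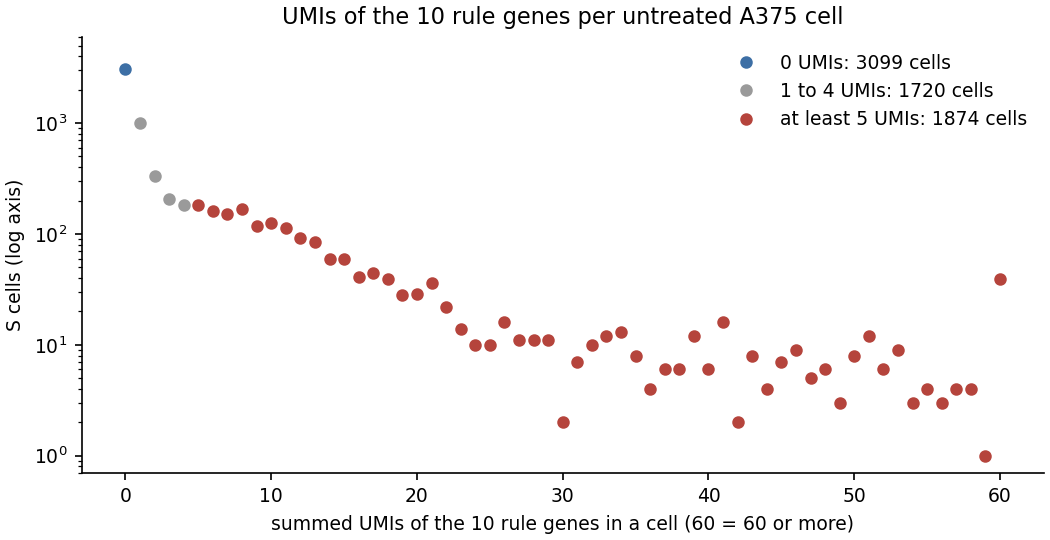
Number of S cells (vertical, log axis) for each summed UMI count of the 10 rule genes (horizontal, with 60 standing for 60 or more). Blue marks the 3099 cells with 0 UMIs, grey the 1720 cells with 1 to 4 and red the 1874 members, and the counts run without a gap across the threshold, with 181 cells at exactly 4 and 182 at exactly 5 UMIs.

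The rule did not cut at a gap. The 181 cells with exactly 4 rule UMIs lie just outside it and the 182 cells with exactly 5 just inside. RRM2, the small subunit of ribonucleotide reductase, was at 151 CPM just outside and 169 just inside, against 11.2 CPM in cells with 0 rule UMIs. The cell cycle histone gene HIST1H4C was at 4324 and 5832 CPM, the kinase AURKA at 15 and 15.5, cyclin B1 (CCNB1) at 35 and 39, and CDC20, an activator of the anaphase-promoting complex, at 87.7 in both. In all 5 genes the cells just outside were nearer to those just inside than to the cells at 0.

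Members had more UMIs than the comparison cells, a median of 10796 against 8052 with 2479.5 against 1948 genes, while mitochondrial genes took a median of 3.0% and 3.27% of the UMIs. A sum of raw UMIs favours deeper cells, and with cells thinned at random to 5000 UMIs 16.9% of those deep enough passed the same rule. At this depth 34 members and 237 comparison cells were shallower and were left out, and the median number of genes was 1514.5 in the members and 1432 in the cells at 0. The whole S library held 63582691 UMIs with a range of 2508 to 41420 per cell. Doublets were not removed, as the rule has no such step. Leaving out the 358 cells with the highest doublet scores removed 8.54% of the members and 2.78% of the cells at 0. In S, 38 barcodes were shared with RV, 70 with RVC and 84 with RVT. The part that free RNA has in low counts could not be measured in a pure cell line, where no cells are known to lack the rule genes.

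Across the other genes with enough UMIs the members differed mainly upwards. Genes were compared where the mean of both classes reached 10 CPM. Of these 5787 genes 252 were at least 2-fold higher in members (4.35%) and 32 at least 2-fold lower (0.553%), and at 1.5-fold the numbers were 596 (10.3%) and 175 (3.02%). The median log2 ratio over the 5787 genes was 0.07. With more than 3 UMIs as the filter 16008 genes were compared, and 1247 were at least 2-fold higher and 1045 at least 2-fold lower. Of the 252 higher genes 108 belonged to a list described below and 144 to none, and of the 32 lower genes 5 belonged to a list. Of the 5787 genes 329 had under 10 CPM in the cells at 0 and passed this filter through the members alone, so that they had to be higher. With the limit of 10 CPM set on the cells at 0 alone 5589 genes were left, of which 131 were at least 2-fold higher (2.34%) and 44 at least 2-fold lower (0.787%). For lower genes this limit lies on the class where they are high, so that it does not correct their count. Some of the 32 lower genes, such as SPP1 at 7.11 CPM and IL1B at 9.78 CPM in members, passed the first filter through the cells at 0 alone. Such genes had to be lower. No count was taken with the limit set on the members alone, so that the 0.553% includes them. All list counts below use the 2-fold limit and can be read against 4.35% and 0.553%, and where a list holds such low genes, the count among those with at least 10 CPM in the cells at 0 is given beside it and can be read against 2.34%.

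The kinases and cyclins of mitosis were higher in members. Of 21 listed genes 13 were measured and these 13 were at least 2-fold higher, but 10 of them had under 10 CPM in the cells at 0 and passed the filter through the members alone. Of the other 3, 3 were at least 2-fold higher, and 8 listed genes had too few UMIs. PBK, a mitotic kinase, was at 94.3 CPM in members and 2.25 in cells at 0, a ratio of 41.9 (32.3 to 55.2), and its UMIs were found in 38.5% and 0.908% of cells at equal depth. AURKB, the kinase of the chromosomal passenger complex (chromosome 17, 8204733 to 8210600), was at 105 against 3.13 CPM (26.9 to 42.3 times higher). CDK1, the kinase that drives entry into mitosis, was at 52.1 against 1.64 CPM (23.4 to 44.1 times higher). Its partner CCNB1 (chromosome 5, 69167010 to 69178245) was at 79.4 against 5.49 CPM, a ratio of 14.4 (12.2 to 17.2), and was detected in 27.4% and 2.69% of cells at equal depth. AURKA, the centrosomal kinase, was at 63.3 against 4.46 CPM (11.7 to 17.3 times higher). GTSE1, a microtubule-bound regulator of G2, had the largest ratio of the list, 70.9 (40.3 to 138), from 12 UMIs in the cells at 0. CKS1B and CKS2, small subunits that bind CDK1, had higher levels in the cells at 0, 100 and 23.8 CPM, and were 4.50-fold and 6.18-fold higher in members.

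Spindle and microtubule genes followed. Of the 24 listed genes 14 were measured and 13 were at least 2-fold higher. Among the 5 with at least 10 CPM in the cells at 0 this held for 4. NUSAP1, which bundles spindle microtubules, was at 69.2 against 2.33 CPM, a ratio of 29.8 (23.0 to 39.1). PRC1, which crosslinks the midzone of the anaphase spindle, was at 50.5 against 2.44 CPM (16.1 to 27.1 times higher), and CKAP2 at 51.9 against 7.67 CPM (5.82 to 7.91 times higher). The most abundant gene of the list was STMN1, the microtubule-destabilising stathmin, at 383 against 77.9 CPM, detected in 82.8% and 30.5% of cells at equal depth. Among tubulins 5 of 7 were at least 2-fold higher, led by TUBA1B at 1787 against 368 CPM (4.75 to 4.97 times higher), while TUBA1A was at 33.0 against 43.2 CPM.

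Of 28 listed kinetochore genes 17 were measured and 16 were at least 2-fold higher, but 11 of the 17 had under 10 CPM in the cells at 0. The other 6 were all at least 2-fold higher. NUF2, of the complex that holds microtubules, was at 34.1 against 0.687 CPM and HJURP, the chaperone of CENPA, at 25.9 against 0.610 CPM. The inner kinetochore genes CENPU, CENPW and CENPM were 8.10-fold, 6.70-fold and 6.30-fold higher, from 10.8, 9.27 and 8.74 CPM in the cells at 0. SGO1, shugoshin, which guards centromeric cohesion, was at 49.0 against 2.37 CPM. BUB3 of the spindle checkpoint had the smallest ratio of those named, 2.09 (1.96 to 2.22).

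In the cytokinesis list 6 of 11 measured genes were at least 2-fold higher, and these 6 had under 10 CPM in the cells at 0, while none of the other 5 reached the limit. CEP55, a midbody protein, was at 48.2 against 1.26 CPM, and the central spindle kinesin KIF23 at 18.8 against 1.3 CPM. The abundant RHOA was at 295 against 233 CPM, and the sum over the list was 1.81-fold higher. Septin SEPT9 was 1.36-fold lower (1.27 to 1.46).

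The anaphase-promoting complex differed between its parts. Of 14 measured genes 3 were at least 2-fold higher, and none of these 3 is a core subunit. They were the activator CDC20 at 158 against 13.9 CPM (10.2 to 12.7 times higher), the E2 enzyme UBE2S at 761 against 189 CPM (3.9 to 4.16 times higher) and the substrate PTTG1, securin, at 294 against 69.1 CPM (4.03 to 4.48 times higher). Among core subunits CDC27 was highest in ratio with 1.83 (1.59 to 2.10) and CDC26 was 1.15-fold lower (1.06 to 1.25). The median log2 ratio of the list was 0.32.

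Genes of chromosome structure were higher in part. In the condensin and cohesin list 9 of 14 measured genes were at least 2-fold higher, and the remaining 5 also had ratios above 1. Among the 9 with at least 10 CPM in the cells at 0, 4 were at least 2-fold higher. SMC4, a condensin subunit, was at 160 against 21.9 CPM (6.67 to 7.98 times higher), NCAPG at 23.3 against 0.954 CPM, and the cohesin protector CDCA5, sororin, at 49.1 against 2.21 CPM. Of 7 measured genes of the nuclear envelope 2 were at least 2-fold higher, TMPO with a ratio of 5.12 and lamin B2 (LMNB2) with 2.59, both under 10 CPM in the cells at 0, whereas lamin A (LMNA) was at 300 against 320 CPM. None of the 4 with at least 10 CPM in the cells at 0 reached the limit.

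Among variant histones and high mobility group proteins 8 of 16 measured genes were at least 2-fold higher, and 7 of the 15 with at least 10 CPM in the cells at 0. HMGB2 was at 196 against 12.5 CPM, a ratio of 15.7 (14.0 to 17.6), and was detected in 60.1% and 5.45% of cells at equal depth. H2AFZ was at 1160 against 346 CPM and HMGN2 at 1049 against 337 CPM. The replacement histone genes H3F3A, at 828 against 863 CPM, and H3F3B, at 1460 against 1099 CPM, did not reach the limit.

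**Figure D2:**
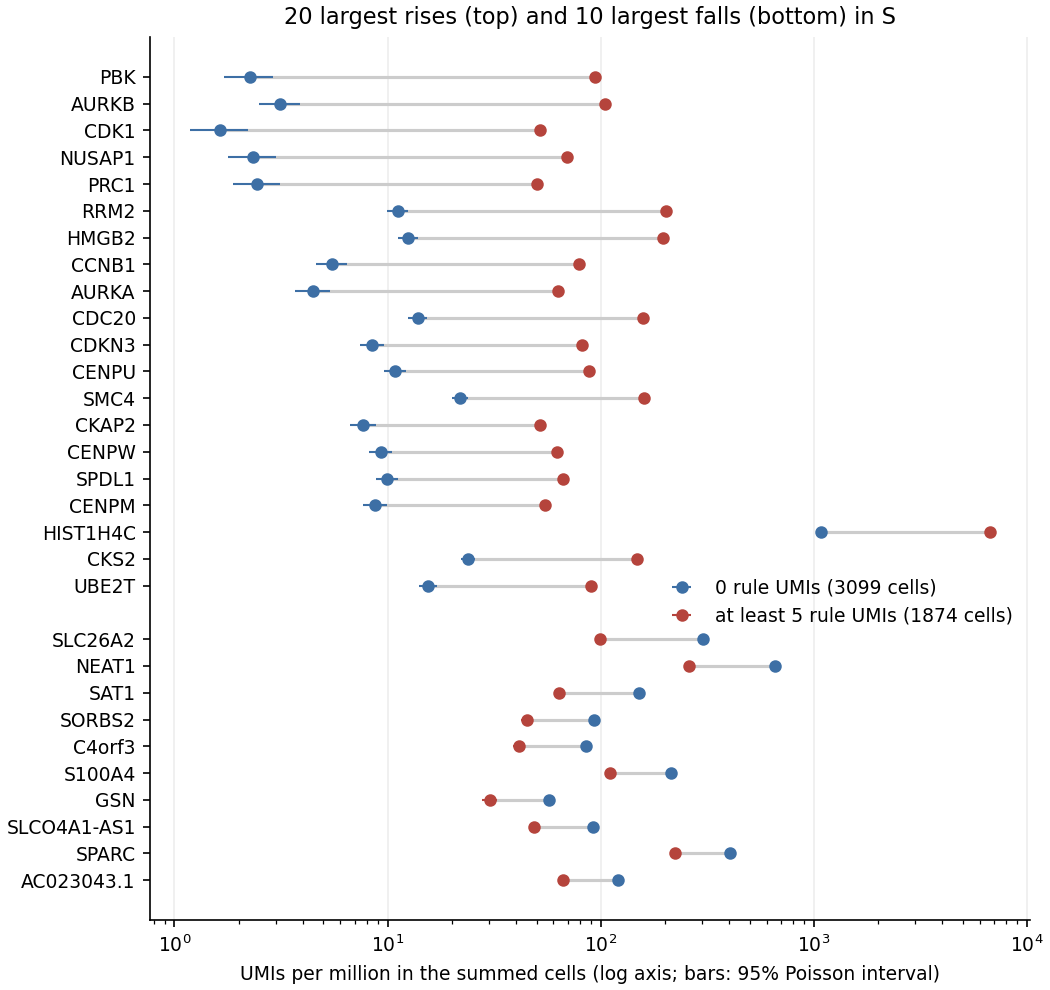
Levels in CPM (horizontal, log axis) of the 20 genes with the largest rise and the 10 with the largest fall that reached 50 CPM in the higher class, in the 1874 members (red) and the 3099 S cells with 0 rule UMIs (blue), with Poisson intervals at 95%. PBK has the widest gap among the rises, HIST1H4C the highest level, 6678 against 1075 CPM, and SLC26A2 and NEAT1 the widest gaps among the falls.

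The members also held transcripts of S phase. Of the published G1/S list of Tirosh with 43 genes, 24 were measured and 20 were at least 2-fold higher in members (median log2 ratio 1.64), with the other 4 also above 1. Among the 16 with at least 10 CPM in the cells at 0, 12 were at least 2-fold higher (75%). For the 46 genes of the companion G2/M list that are not in the rule, 33 were measured, 29 were at least 2-fold higher and all 33 were above 1, but 22 had under 10 CPM in the cells at 0, and of the other 11 genes 9 were at least 2-fold higher (81.8%). Together the G1/S genes reached 1377 CPM in members and 383 in the cells at 0, a ratio of 3.59 (3.51 to 3.67), and the G2/M genes 2855 and 646 CPM, a ratio of 4.42 (4.34 to 4.49).

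RRM2 (chromosome 2, 10120698 to 10131419) had the largest ratio of the G1/S list, 202 against 11.2 CPM or 18.1 (16.1 to 20.4), and was found in 58.3% and 4.96% of cells at equal depth. RAD51AP1, a recombination factor, was at 30.4 against 2.10 CPM, CENPU at 87.8 against 10.8 CPM, and CLSPN, claspin of the replication checkpoint, at 48.7 against 6.87 CPM. The ratios were smaller for GINS2, a subunit of the replicative helicase, at 50.1 against 15.9 CPM, and for PCNA, the sliding clamp of the polymerases, at 39 against 18.0 CPM.

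Replication-dependent histone genes, whose transcripts mostly lack a poly(A) tail and are therefore captured in part only, were measured for 5 of 30 listed genes, and 4 were at least 2-fold higher, 3 of them from under 10 CPM in the cells at 0. Of the 2 with at least 10 CPM there 1 was at least 2-fold higher. HIST1H4C (chromosome 6, 26103876 to 26104310), which encodes histone H4, was at 6678 CPM in members and 1075 CPM in cells at 0, a ratio of 6.21 (6.13 to 6.29) from 142724 and 28185 UMIs. At 5000 UMIs per cell a member held a median of 35 of its UMIs with 7 at the 10th and 61 at the 90th percentile, and a cell at 0 held a median of 5 with 1 and 10. HIST2H2AC was 8.72-fold, HIST1H1D 6.05-fold and HIST1H1E 3.52-fold higher, but among cells with at most 10 HIST1H4C UMIs at 5000 UMIs per cell the log2 ratio of HIST1H1E was -0.17 in place of 1.81. HIST1H1C was at 54.7 against 41.5 CPM (1.21 to 1.43 times higher). Histone genes of a class are near-identical copies, and how shared reads were assigned among them is not given in the sources used here.

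The detection of an S phase gene and of a mitotic gene was counted in the same members. At equal depth 44.7% of the members (42.4% to 47.0%) held RRM2 without CCNB1, 13.9% (12.3% to 15.5%) held CCNB1 without RRM2, 13.5% (12.0% to 15.2%) held both and 27.9% neither. For AURKA in place of CCNB1 the shares were 45.7%, 10.9%, 12.6% and 30.9%. A median member held 6 G1/S UMIs and 13 G2/M UMIs, and a median cell at 0 held 1 and 3. At this depth a cell without a UMI of a gene may still express it, so that these shares do not set apart classes of members. The class is called here by its rule.

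**Figure D3:**
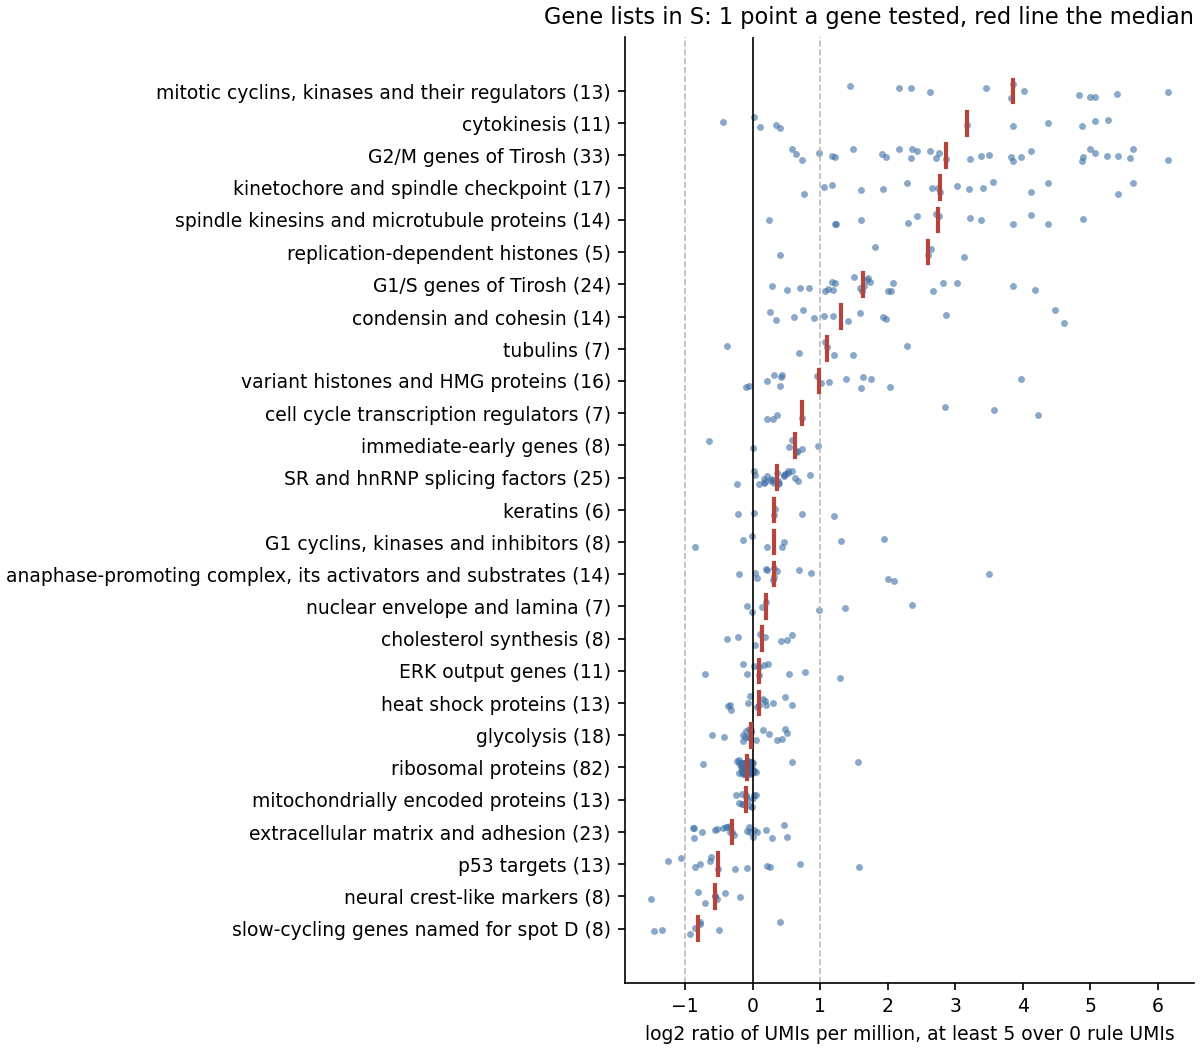
Log2 ratio of CPM in members over S cells with 0 rule UMIs (horizontal) for each measured gene (points) of the gene lists with at least 5 measured genes (vertical, their number in brackets), with the median of a list as a red line and dashed lines at the 2-fold limits. The medians of the mitotic cyclins, the kinetochore, the G2/M and the G1/S genes lie to the right of the upper limit, those of the anaphase-promoting complex, at 0.32, and of the ribosomal proteins do not, and genes with under 10 CPM in the cells at 0 are included.

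Levels were also followed along the number of rule UMIs. The rule genes are themselves genes of G2 and mitosis, so that a rise of such genes along this number follows in part from the choice. Members with 5 to 9 (780 cells), 10 to 19 (685), 20 to 39 (250) and 40 or more rule UMIs (159) were summed separately. Of 33 measured G2/M genes 32 were highest at 40 or more, and of 24 measured G1/S genes 23 were highest at 5 to 19. The G2/M sum was 646 CPM at 0, 1029 at 1 to 4, 2138 at 5 to 9, 2581 at 10 to 19, 3595 at 20 to 39 and 5410 at 40 or more. The G1/S sum was 383, 846, 1577, 1485, 994 and 803 CPM in the same order, so that it was highest in the members nearest to the threshold and still above the cells at 0 in those with 40 or more.

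Single genes are given in the same order. AURKA was at 4.46, 8.63, 21.6, 41.8, 113 and 222 CPM across these 6 classes, CDC20 at 13.9, 41.9, 104, 124, 223 and 382 CPM, and CCNB1 at 5.49, 15.1, 47.7, 64.4, 117 and 196 CPM. KIF20A, a kinesin of cytokinesis that was too low for the comparison of all members, was at 0.191 CPM in cells at 0, 3.11 at 5 to 9 and 43.7 at 40 or more. In contrast, HIST1H4C was at 1075, 2088, 6837, 7776, 5930 and 3188 CPM and RRM2 at 11.2, 55.6, 202, 235, 162 and 143 CPM. For the helicase and clamp genes the values were as follows. GINS2 was at 15.9, 44.8, 63.9, 53.3, 30.9 and 15.9 CPM and PCNA at 18.0, 36.6, 51.6, 38.4, 25.6 and 14.6 CPM, and both came back at 40 or more rule UMIs to about the level of the cells at 0 or below it. CDC6, which loads the helicase onto origins, was at 3.13, 14.1, 20.1, 15.8, 7.89 and 8.65 CPM. Depth rises along these classes, and with classes set on cells thinned to 5000 UMIs GINS2 was at 54.0 CPM at 5 to 9, 21.1 at 10 to 19 and 20.8 at 20 or more rule UMIs, and PCNA at 41.4, 32.3 and 7.55 CPM. The last of these classes held 106 cells, so that its values rest on few UMIs. No order between the genes in where they peak is read from these values.

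**Figure D4:**
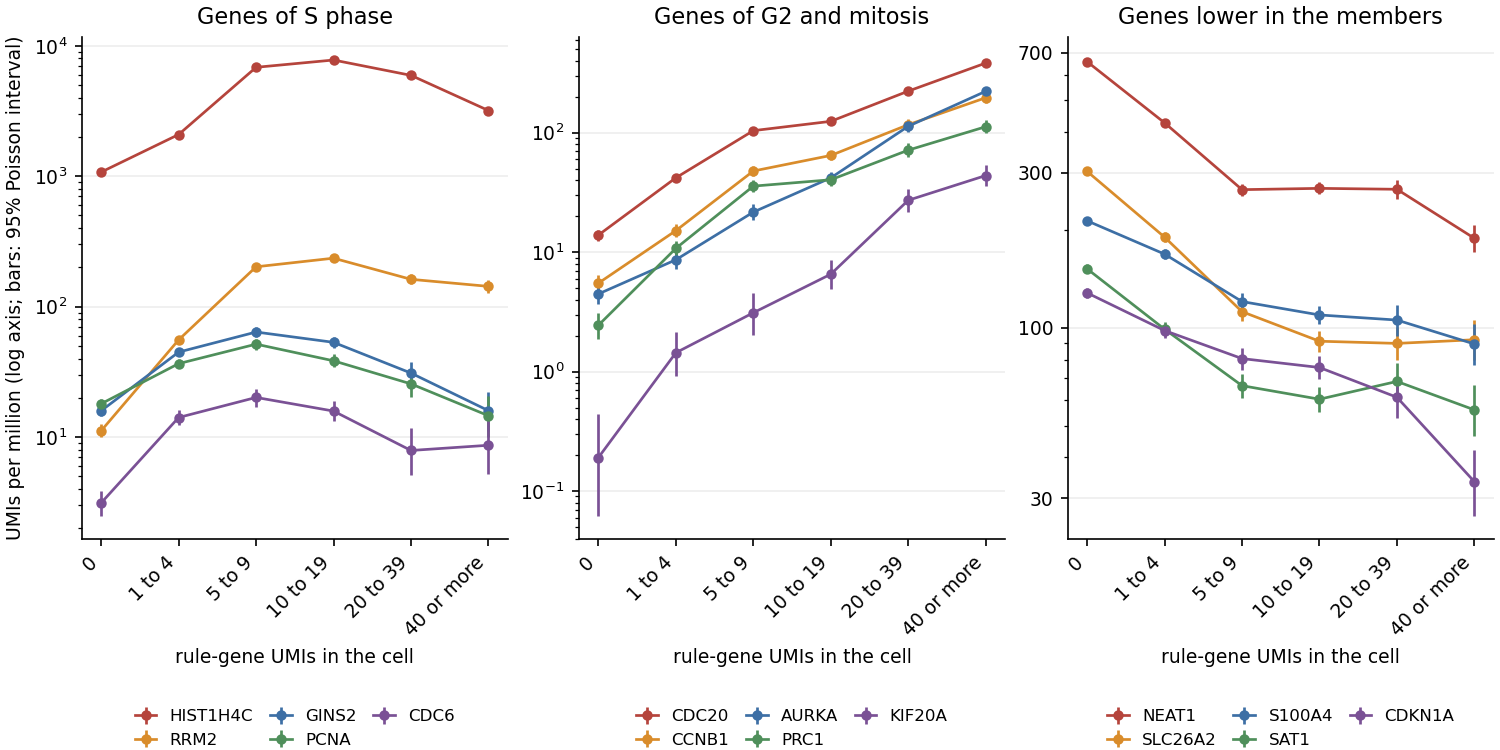
Levels in CPM (vertical, log axes, Poisson intervals at 95%) against the rule UMIs of the S cells (horizontal, 0 to 40 or more) for 5 genes of S phase (left), 5 of G2 and mitosis (middle) and 5 that were lower in members (right). Without thinning S phase genes peak at 5 to 19 rule UMIs, those of mitosis climb to the last class, and NEAT1, SLC26A2 and CDKN1A descend from 658, 303 and 128 CPM at 0.

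Members with 20 or more rule UMIs (409 cells) were compared with members with 5 to 9 across all genes. The classes were chosen by the rule UMIs, so that this is again a description. Of 5872 genes 76 were at least 2-fold higher (1.29%) and 24 at least 2-fold lower (0.409%), with a median log2 ratio of -0.07. Among the 42 measured G2/M genes 26 were at least 2-fold higher, and among the 32 measured G1/S genes 13 were at least 2-fold lower and all 32 were below 1. All 5 measured replication-dependent histone genes were below 1. Median UMIs per cell rose from 9886.5 at 5 to 9 to 13006 at 40 or more rule UMIs. With classes set on cells thinned to 5000 UMIs (681 cells at 5 to 9, 285 at 10 to 19 and 106 at 20 or more), HIST1H4C was at 7738, 5839 and 2985 CPM, so that it was highest at 5 to 9 and the log2 ratio of 20 or more over 5 to 9 was -1.37 in place of -0.51. For RRM2 this ratio was -0.96 in place of -0.39. Of the 252 genes that were higher in all members, 40 were again higher in this comparison and 10 were lower, and 36 higher and 14 lower genes were not among the 252.

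Of the 76 higher genes 29 had under 10 CPM at 5 to 9 rule UMIs and passed the filter through the class where they are high. KIF20A, at 33.9 against 3.11 CPM, a ratio of 10.9 (7.17 to 17.3), and cyclin F (CCNF), at 23.1 against 3.36 CPM, are among these 29. Of 5952 genes with at least 10 CPM at 5 to 9, 47 were at least 2-fold higher (0.79%), and of the 34 such genes of the G2/M list 19 were. Likewise 15 of the 24 lower genes had under 10 CPM at 20 or more rule UMIs. Of 5792 genes with at least 10 CPM at 20 or more, 9 were at least 2-fold lower (0.155%), and of the 23 such genes of the G1/S list 6 were. AURKA was at 158 against 21.6 CPM, a ratio of 7.29 (6.18 to 8.63). ARL6IP1, a protein of the endoplasmic reticulum membrane, was at 142 against 22.1 CPM (5.46 to 7.62 times higher). KPNA2, an importin, was at 232 against 66.0 CPM (3.17 to 3.89 times higher), CCNB2 3.07-fold higher (2.61 to 3.6), CKS2 2.78-fold higher (2.54 to 3.04) and UBE2S 2.22-fold higher (2.14 to 2.31). On the other side GINS2 was 2.58-fold lower (2.12 to 3.14), PCNA 2.45-fold lower (1.98 to 3.04), the chromatin remodeller HELLS 2.30-fold lower (1.88 to 2.83) and CLSPN 2.28-fold lower (1.88 to 2.77). MYBL2, the activator of late cell cycle genes, was at 14.7 against 33.7 CPM. MCM3, a subunit of the replicative helicase, was at 7.09 against 21.6 CPM and is one of the 15 lower genes that passed the filter through the class at 5 to 9.

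The promoters of these 2 groups held the printed elements in different shares. Of 83 promoters of the higher genes (61 of 76 matched) 44.6% held TTTGAA, 69.9% CCAAT, 37.3% both and 9.64% TTTCCCG or TTTGGCG. Of 29 promoters of the lower genes (20 of 24 matched) 3.45% held TTTGAA, 48.3% CCAAT, none both and 48.3% TTTCCCG or TTTGGCG. For the 252 genes that were higher in all members, 269 promoters of 200 matched genes held them in 24.2%, 59.1%, 19% and 20.1%. The G2/M list had TTTGAA in 58.5% and the G1/S list in 9.30% of its promoters, and TTTCCCG or TTTGGCG in 11.3% and 39.5%. A gene can have several promoters with overlapping windows, and no test was run on these shares. The 2 groups include the 29 higher and 15 lower genes that passed the filter only through the class where they are high. No shares were taken without these genes. The classes were chosen by the rule genes, whose 7 matched promoters all held TTTGAA and CCAAT. Shares among genes that rise with the rule genes are therefore not independent of the choice.

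Few transcription regulators of the cell cycle could be measured. Of 19 listed transcription regulators 7 were measured and 3 were at least 2-fold higher in members, MYBL2 at 28.6 against 1.53 CPM, FOXM1 at 43.6 against 3.66 CPM and the repressor E2F7 at 18.4 against 2.56 CPM. These 3 were under 10 CPM in the cells at 0, and none of the other 4 reached the limit. E2F4, the E2F of the DREAM complex, was at 88.4 against 76.2 CPM. FOXM1 was at 3.66 CPM in cells at 0, 39.1 at 5 to 9 and 50.6 at 40 or more rule UMIs, whereas MYBL2 was highest at 5 to 9 with 33.7 CPM and was at 13.2 CPM at 40 or more. E2F1 was too low for the list count and was at 1.91 CPM at 0, 9.82 at 5 to 9 and 1.82 at 40 or more, the last from few UMIs.

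The genes of the G1 decision gave few calls. Of 8 measured G1 cyclins, kinases and inhibitors, 2 were at least 2-fold higher in members, the inhibitor CDKN2D with a ratio of 3.84 (3.25 to 4.56) and CDK2, the kinase of S phase entry, with 2.48 (2.07 to 2.97). Both had under 10 CPM in the cells at 0, and among the 5 genes with at least 10 CPM there none reached the limit. Cyclin D1 (CCND1) was at 200 against 221 CPM and its partner CDK4 at 327 against 242 CPM. CDKN1A, the inhibitor p21 (chromosome 6, 36676460 to 36687339), was at 71.0 against 128 CPM, 1.80-fold lower (1.70 to 1.92), with UMIs in 22.6% and 22.4% of cells at equal depth. Its level was 128, 98.2, 80.5, 75.6, 61.3 and 33.7 CPM from 0 to 40 or more rule UMIs. The share of cells with CDKN1A therefore hardly differed while its summed level did.

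Among 20 p53 targets 13 were measured, with 2 at least 2-fold lower, 1 at least 2-fold higher and a median log2 ratio of -0.51. SAT1, an enzyme of polyamine catabolism, was 2.39-fold lower (2.25 to 2.55) and PLK2, a kinase of the stress response, 2.08-fold lower (1.85 to 2.34). GDF15, a stress-induced cytokine, was higher in members, at 44.4 against 15 CPM (2.64 to 3.35 times higher). When the cells at 0 were weighted to the depth of the members, the log2 ratio of GDF15 was 0.82 in place of 1.57.

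The largest falls of genes that reached 50 CPM in the cells at 0 were outside cell division. SLC26A2, a sulfate transporter (chromosome 5, 149960737 to 149993455), was at 98.9 CPM in members and 303 in cells at 0, 3.06-fold lower (2.92 to 3.21), and was detected in 31.6% and 63.3% of cells at equal depth. NEAT1, the nuclear RNA that builds paraspeckles (chromosome 11, 65422774 to 65445540), was at 259 against 658 CPM, 2.54-fold lower (2.46 to 2.62). The adaptor SORBS2 was 2.07-fold lower (1.92 to 2.24) and C4orf3, a small membrane protein, 2.07-fold lower (1.91 to 2.24). S100A4, a calcium-binding protein of motility, was at 111 against 213 CPM, and GSN, the actin-severing gelsolin, at 30.2 against 57.5 CPM. SPARC, a secreted matrix protein, was at 223 against 405 CPM (1.76 to 1.88 times lower), and AC023043.1 at 66.6 against 121 CPM. The antisense transcript SLCO4A1-AS1 was at 48.9 against 91.8 CPM, and whether its UMIs were counted by strand is not given in the sources used here. Along the rule UMIs NEAT1 was at 658 CPM at 0, 427 at 1 to 4, 266 at 5 to 9 and 189 at 40 or more, and SLC26A2 at 303, 190, 112 and 92.0 CPM, so that both were lower already in cells with 1 to 4 rule UMIs, below the threshold of the rule.

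A further list holds genes the study named for a cluster it describes as slow cycling and stromal-like, with p53 targets. CDKN1A and MDM2 are in this list and in that of the p53 targets. Of 8 measured genes 7 were below 1 and 2 were at least 2-fold lower (median log2 ratio -0.82). These were NEAT1 and the cytokine IL1B at 9.78 against 26.8 CPM. IL1B had under 10 CPM in members and passed the filter through the cells at 0 alone, so that it had to be lower. The 1 gene above 1 was HIST1H1C. KDM5B, a histone demethylase known from slow-cycling melanoma cells, was at 30.6 CPM at 0, 26.1 at 1 to 4, 15.7 at 5 to 9 and 20.5 at 10 to 19 rule UMIs. At 20 or more it was back at 32.3 CPM, 2.06-fold higher (1.63 to 2.61) than at 5 to 9, so that it did not descend with the number of rule UMIs. The study named these genes from these libraries, so that their direction is not independent evidence.

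All 8 measured neural crest-like markers, likewise named by the study from these libraries, were lower in members, 1 of them by at least 2-fold, with a median log2 ratio of -0.56. S100B, a glial and melanocytic calcium-binding protein, was 2.83-fold lower (2.52 to 3.19). CD74, the chaperone of MHC class II, was at 666 against 975 CPM and RAMP1, a receptor subunit, at 75.9 against 133 CPM. The list also holds HLA genes of MHC class II, and the study describes these genes as antigen presenting as well as neural crest-like. It summed to 1013 CPM in members and 1497 in cells at 0, so that UMI counts of the list rest largely on CD74. At equal depth a median member held 3 UMIs of the 13 markers and a median cell at 0 held 6, and at least 3 markers were detected in 36.5% (34.3% to 38.8%) and 50.1% (48.3% to 52%) of cells. All 8 were highest at 0 to 4 rule UMIs.

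Matrix and adhesion genes gave no call at 2-fold among 23 measured, with 16 below 1 and a median log2 ratio of -0.30. TIMP3, an inhibitor of matrix proteases, was at 21.2 against 39 CPM and fibronectin (FN1) at 8.23 against 15.1 CPM, while caveolin CAV1 was at 101 against 73.0 CPM. FN1 had under 10 CPM in members and passed the filter through the cells at 0 alone. Pigment cell genes were all too low, with a sum of 18.9 CPM in members and 13.2 in cells at 0.

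Output genes of the MAPK pathway, which BRAF drives in these cells, went both ways. Of 11 measured genes 1 was at least 2-fold higher, FOSL1, an AP-1 factor, at 249 against 102 CPM (2.33 to 2.56 times higher). EPHA2 was at 38.7 against 22.7 CPM, the phosphatase DUSP4 at 83.6 against 136 CPM, and the median log2 ratio was 0.10. Of 8 immediate-early genes none reached 2-fold, although 7 were above 1, with JUN at 15 against 7.71 CPM and IER2 at 155 against 93.3 CPM. JUN had under 10 CPM in the cells at 0 and passed the filter through the members alone, so that it had to be higher. None of the 7 genes with at least 10 CPM there reached 2-fold. Among 6 keratins KRT7 was at 255 against 110 CPM (2.21 to 2.41 times higher), and its log2 ratio was 0.77 after matching the depth in place of 1.21.

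KRT81, a hair keratin (chromosome 12, 52285913 to 52291534), and SPANXB1, a cancer-testis gene (chromosome X, 141002591 to 141003706), were found in more members than cells at 0 at equal depth, KRT81 in 63.2% (61.0% to 65.4%) and 48.2% (46.4% to 50.1%) and SPANXB1 in 39.5% (37.3% to 41.8%) and 25.5% (23.9% to 27.1%). Their levels were 1.26-fold (1.24 to 1.28) and 1.68-fold (1.62 to 1.76) higher, and the non-coding RNA LINC01419 was 1.41-fold higher (1.35 to 1.47) with UMIs in 60.2% and 51.0% of cells. SPANXB1 was at 151 CPM at 0, 200 at 5 to 9 and 400 at 40 or more rule UMIs, while LINC01419 was at 165, 234 and 207 CPM.

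Genes used by all cells differed little between the classes. Of 82 measured ribosomal protein genes 1 was at least 2-fold higher and 75 were below 1, with a median log2 ratio of -0.08. That gene was RPL39L, a paralog with 70.8 against 23.9 CPM, and the most abundant, RPS27, was at 24442 against 25532 CPM. No gene of glycolysis among 18, of heat shock proteins among 13, of cholesterol synthesis among 8 or of the mitochondrial genome among 13 reached 2-fold. For cholesterol synthesis 2 genes had under 10 CPM in the cells at 0, which leaves 0 of 6 with at least 10 CPM there. The 25 splicing factors also gave no call at 2-fold, but 24 of them were above 1 (median log2 ratio 0.36), with SRSF7 at 264 against 147 CPM. Of 13 markers of other cell types 6 had no UMI in either class and 1 was measured, the lysosomal CD68, with a sum over the list of 33.7 CPM in members and 38.7 in cells at 0.

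Of the 144 higher genes in no list, the following were chosen after their values were seen. The histone chaperone ASF1B was at 43.1 against 3.20 CPM, thymidine kinase TK1 at 137 against 23.5 CPM and the PCNA-binding PCLAF at 443 against 100 CPM. The maintenance methyltransferase DNMT1 was at 143 against 54.4 CPM and EZH2, which methylates histone H3, at 48.6 against 11 CPM. The metallothionein MT2A was at 4291 against 1767 CPM, the stress-induced pseudokinase TRIB3 at 319 against 125 CPM and MTHFD2, of mitochondrial folate metabolism, at 413 against 185 CPM. By the rule for the largest rises, CDKN3, a phosphatase of CDK2, was 9.68-fold higher, SPDL1, which recruits dynein to kinetochores, 6.70-fold, and UBE2T, of the Fanconi anaemia pathway, 5.86-fold. ASF1B, CDKN3 at 8.47 CPM and SPDL1 at 9.96 CPM had under 10 CPM in the cells at 0 and passed the filter through the members alone.

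The same rule was applied to the resistant cultures, where depth differs. Among RV cells 38.1% passed it (36.6% to 39.5%), among RVC cells 34.4% did (33.4% to 35.4%), and among RVT cells 4.72% did (4.30% to 5.18%). Of 10427 deposited RVT barcodes 1084 had under 500 genes and 580 a mitochondrial share over 20%, and of 9266 RVC barcodes 903 and 478. For RV these numbers were 0 and 1 of 4328, and for S 0 and 2 of 6695. Median UMIs per cell were 11648 in RV but 4099 in RVC and 2951 in RVT, so that 5 UMIs are a stricter limit in the latter. The shares were therefore also taken with cells thinned to 1500 UMIs and a limit of 2 rule UMIs. This left out 403 RVC and 852 RVT cells with fewer UMIs, so that 7904 and 8461 were used, and no cell of S or RV. At this depth 15.1% of cells passed in S (14.3% to 16.0%) and 19.5% in RV (18.4% to 20.7%). The RVC share was then 36% (34.9% to 37.1%) and the RVT share 5.29% (4.83% to 5.79%). RVC moved from a share between S and RV to the highest. The summed level of the 10 rule genes was 966 CPM in RVC, 605 in RV, 515 in S and 262 in RVT. This is the same order as at the thinned depth, but both come from the same UMIs, so that neither bears out the other.

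**Figure D5:**
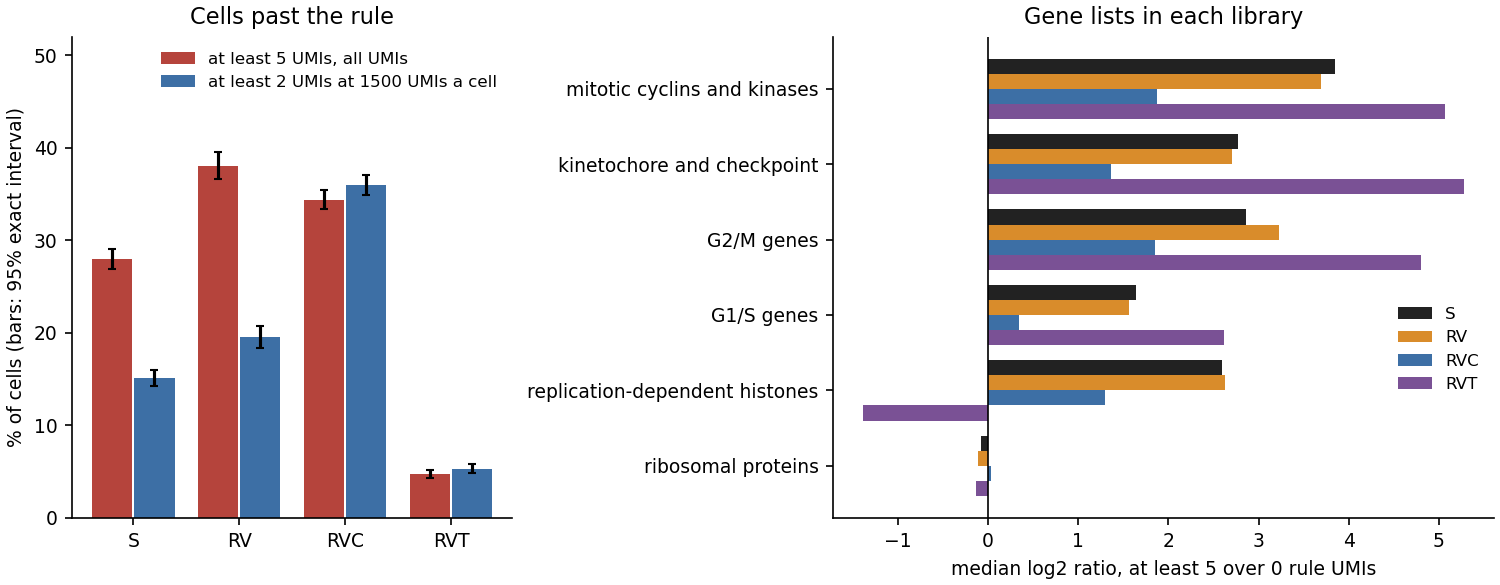
Left, share of cells past the rule in each library (percent, exact intervals at 95%) for at least 5 rule UMIs without thinning (red) and at least 2 rule UMIs at 1500 UMIs per cell (blue). Right, median log2 ratio of CPM in cells past the rule over cells with 0 rule UMIs for 6 gene lists in each library, where RVC has the shortest bars for the G1/S genes and RVT a bar below 0 for the replication-dependent histones.

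Within RV 298 genes were at least 2-fold higher in cells past the rule (5.13%) and 69 lower (1.19%), within RVC 138 (2.33%) and 20 (0.337%), and within RVT 454 (6.61%) and 127 (1.85%). Of the genes higher in S and measured in RV, 211 of 242 were higher there too, or 87.2% of the S genes and 75.6% of the RV genes. For RVC this held for 78 of 197, or 39.6% of the S genes and 88.6% of the RVC genes, and for RVT for 179 of 205, or 87.3% and 58.3%. Of the lower genes 16 of 23 were shared with RV (69.6% of the S genes and 28.1% of the RV genes), 1 of 14 with RVC (7.14% and 20%) and 5 of 20 with RVT (25% and 10.0%). These overlaps use the filter on the mean of both classes. Genes that passed it through 1 class alone had to be higher in that class in each library. No overlap was taken without such genes. Cells at 0 had a median of 2844.5 UMIs in RVC and 2863.5 in RVT, against 8052 in S and 10235 in RV. Cells past the rule had 5602, 4246, 10796 and 13686 in the same order. A count of 0 rule UMIs is thus a weaker limit in RVC and RVT. The difference between S and RVC is visible in the G1/S list, where 20 of 24 measured genes were at least 2-fold higher in S members, 22 of 28 in RV, 2 of 28 in RVC and 25 of 27 in RVT. At 1500 UMIs per cell these counts were 11 of 24, 7 of 31, 0 of 29 and 24 of 26. The classes past the rule differed in size, with 448 RVT, 845 RV, 1013 S and 2844 RVC cells at this depth. Without thinning they held 440 RVT, 1647 RV, 1874 S and 2857 RVC cells. Low genes rest on fewer UMIs in a smaller class, where counting error can add calls. How far class size makes up the order of the counts between libraries was not tested. Of all genes at this depth 234 (4.01%) were higher and 48 (0.823%) lower in S, 260 (4.41%) and 71 (1.2%) in RV, 64 (1.06%) and 4 (0.0663%) in RVC, and 548 (7.94%) and 244 (3.53%) in RVT. In the G2/M list 29 of 33 genes were higher in S, 29 of 33 in RV, 31 of 40 in RVC and 44 of 44 in RVT. Among genes with at least 10 CPM in a library's own cells at 0, the G1/S counts were 12 of 16 in S, 14 of 19 in RV, 2 of 29 in RVC and 9 of 11 in RVT, and the G2/M counts 9 of 11, 9 of 12, 18 of 27 and 15 of 15. Over all genes with that limit 2.34% were higher in S, against 2.97% in RV. The share was 1.17% in RVC and 3.27% in RVT.

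Named genes showed where S stood. In S CCNB1 was at 79.4 against 5.49 CPM, in RV at 93.3 against 7.20, in RVC at 204 against 62.1 and in RVT at 341 against 11.1. RRM2 was in S at 202 against 11.2 CPM, close to RV with 204 against 11.6, whereas RVC had 84.6 against 33.8 and RVT 165 against 1.18. In RVC the cells with 0 rule UMIs thus held more of both genes than in the other libraries. For HIST1H4C the ratio was 6.21 in S against 9.96 in RV, 6.81 in RVT and 2.36 in RVC. Of 30 listed replication-dependent histones the measured genes numbered 5 (S), 6 (RV), 4 (RVC) and 5 (RVT) without thinning. The medians therefore do not all cover the same genes. S had 4 genes at least 2-fold higher and 0 lower, whereas RV was split, with 4 higher and 2 lower. The median log2 ratio of the list was 2.60 in S, 2.63 in RV and 1.3 in RVC. At 1500 UMIs per cell it was 1.79 in S, 1.92 in RV and 0.33 in RVC, where 3 of 4 measured genes were at least 2-fold higher without thinning and 0 of 4 with it. In RVT, with 2 of 5 measured genes at least 2-fold higher and 3 lower, the median was -1.38 without thinning and -1.15 with it. The sum over the list without thinning was still 3.46-fold higher, since HIST1H4C makes up most of it.

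Of the lower genes, NEAT1 was below 1 in cells past the rule in all 4 libraries, at 259 against 658 CPM in S and 296 against 1548 in RV, and at 1120 against 2349 in RVC and 4223 against 7720 in RVT. CDKN1A was 1.80-fold lower in S members. In RV it was at 165 against 412 CPM and in RVC at 86.7 against 249, and RVT had 109 against 114, a ratio of 0.962 (0.833 to 1.11). SLC26A2 was at 22.3 against 111 CPM in RV and 158 against 462 in RVT, but at 16.2 against 14.4 in RVC. These differences between libraries were not tested, since each has 1 culture. RVC and RVT differ from S and RV in depth and in the gene annotation of their counts as well as in drug.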

How the data were processed

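Droplet RNA sequencing of A375 cells was analysed in 4 libraries, S, RV, RVC and RVT. The authors prepared them with the 10x Genomics Chromium kit, demultiplexed the reads with bcl2fastq 2.20.0.422 and counted them with Cell Ranger against GRCh38, per the labels. The deposited counts are whole UMI counts per gene and barcode, without normalization. The annotation is not given in the sources used here, and RVC and RVT have another one than S and RV. Symbols and positions were taken from GENCODE annotation of GRCh38, and promoters from RefSeq (GRCh38.p14).

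Cells were kept at 500 genes and at most 20% mitochondrial UMIs. UMIs were summed per class and divided by the total to give CPM, and genes other than the rule genes were compared where the mean of both classes reached 10 CPM. A gene was called at a ratio of 2. With 1 library per condition no test was run, and cells were not treated as replicates. Thinned cells were drawn without replacement with random seed 1. Cells with 0 rule UMIs hold no rule UMI by construction, so no ratio of a rule gene is given.

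Members and gene lists were chosen with earlier results of these data known. Named genes were the rule genes, the 20 largest rises and 10 largest falls with at least 50 CPM in the higher class, the most abundant gene and up to 4 rises and 2 falls of each list, KRT81, SPANXB1 and LINC01419. Other genes, among them those of the comparison within the members and of the printed promoters, were chosen after their values were seen, as were that comparison, the split at 40 rule UMIs, the thinning to 1500 UMIs, the filters on the lower class alone and the settings on HIST1H4C. Doublet scores came from scrublet in scanpy 1.11.5, with 0.8% removed per 1000 barcodes. TMM factors came from edgeR 4.0.16 in R 4.3.3, and all else was computed with numpy 2.4.6, scipy 1.17.1 and pandas 2.3.3 and drawn with matplotlib 3.10.9 in Python 3.11.15. The ratio calculation was tested on simulated data.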

Additional observations from a re-analysis of the deposited data

Results flagged for a closer look

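HIST1H1C, a linker histone gene (chromosome 6, 26055787 to 26056428), stood out because its direction differed between libraries. Its ratio of cells with at least 5 over cells with 0 rule UMIs was 1.32 in S, but 0.391 in RV, 0.748 in RVC and 0.384 in RVT. Its level in S was 54.7 against 41.5 CPM, in RV 57.0 against 146 CPM, in RVC 63.0 against 84.2 CPM and in RVT 61.2 against 159 CPM. The difference between libraries was not tested, because each condition has 1 library.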

How the results depend on the processing

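No paired analysis was possible because each condition has 1 library. Depth limits low genes and lets deeper cells pass the rule more often, and no value covers the spread between cultures.

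The share of members, 28.0%, was 16.9% at 5000 UMIs per cell, 16.3% at 10, 33.8% at 3 and 2.38% at 40 rule UMIs, 24.9% without TOP2A in the rule, 26.9% without MKI67, 25.2% without CENPF, 24.2% without UBE2C, 25.6% without BIRC5, 40.5% among cells with at least 2000 genes and 7.09% among cells with at most 10 HIST1H4C UMIs. The 252 higher and 32 lower genes became 59 and 5 with a filter of 50 CPM (G2/M list 8, G1/S list 2), 1247 and 1045 with more than 3 UMIs as the filter (G1/S list 37), 131 and 44 with a filter of 10 CPM in the cells at 0 alone (G2/M list 9, G1/S list 12), and 596 and 175 at 1.5-fold. At 40 rule UMIs 105 genes were lower and 8 of the G1/S list higher. With depth matched the counts were 260 and 34, and with TMM 239 and 36.

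At 1500 UMIs per cell RVC had 64 higher and 4 lower genes, from 2844 cells past the rule, and RVT 244 lower, from 448 cells. With classes of 20 or more and 5 to 9 rule UMIs at equal depth, the log2 ratio was -0.96 for RRM2 (-0.39 without thinning), -1.37 for HIST1H4C (-0.51), 2.54 for AURKA (2.87) and 1.62 for CDC20 (1.47). The named genes were picked largely by the size of their difference between members and cells at 0, and every alternative used the same library. Whether they keep a direction is therefore not independent of the choice. Of 69 named genes called at 2-fold in S, 68 kept their direction in every alternative and 54 their call. The exception in direction was HIST1H1E, at -0.17 on the log2 scale in cells with at most 10 HIST1H4C UMIs (283 members and 2578 cells at 0) in place of 1.81, and the cause was not tested. In the same cells NEAT1 was at -0.98.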
